A study of Homo sapiens with 12 samples.

Results

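The comparison of 12 h with 8 h of culture in REC1 cells, a long-established line from a human mantle cell lymphoma, set the 4 libraries taken at 12 h against the 4 taken at 8 h. Members were chosen by the time in the column headers of the deposited count table, and they are 8 of its 12 libraries. The other 4 were taken at 4 h. Each time holds 1 library of cells given DMSO as the vehicle, ibrutinib, SPX5551 or both agents together. Ibrutinib is a covalent inhibitor of BTK, a kinase of B-cell receptor signalling, and SPX5551 was used, by the title of the study, to inhibit the chemokine receptor CXCR4. The headers name these treatments dmso, ibr, pol5551 and Combo, and each 12 h library was paired with the 8 h library of the same header treatment. All groups share the same unmodified line, and no library without vehicle or agent was analysed here, so time in culture and time since the start of treatment cannot be told apart. The sources used here give no doses. Sample descriptions attach each column to another treatment than the header does, with the same shift at each time, so that the times and the pairs are the same under both readings. Treatments below are those of the headers.

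Cells kept in culture change their surroundings as they use nutrients and release their own products, and their transcripts follow. Cholesterol synthesis is run by SREBP transcription factors, which are released for the nucleus when membranes of the endoplasmic reticulum hold little sterol. A load of unfolded protein in the same organelle turns on chaperone genes through ATF6 and XBP1, and the circadian clock is driven by CLOCK and BMAL1, which bind E-box letters in the promoters of clock genes. In B-lymphoid cells, receptor signals raise NF-kappaB targets and chemokines such as CCL22.

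Total counts ranged from 19336303 to 24432822 at 12 h and from 20147758 to 28934030 at 8 h. Levels are CPM, counts scaled to a common library total, after TMM scaling, which corrects totals for composition. Differences and fold changes are on the log2 scale, with a prior count of 2 added to counts for the differences of single pairs. With 1 library per treatment and time, the 4 treatments served as the replicates, and p-values measure the spread between these samples, which may be technical. Genes were tested with edgeR's quasi-likelihood test with treatment and time as terms, and called at a Benjamini-Hochberg adjusted p under 0.05. The fit of all pairs used all 12 libraries, so the 4 h libraries also add to the estimate of the spread. The B-cell markers MS4A1, CD79A, CD79B, PAX5, CD22 and CCND1 were present in all 8 libraries, the lowest being CD22 with 84.4 CPM in the 8 h Combo library. Summed over 12 listed T-cell markers, levels were 18.7 to 20.3 CPM at 12 h and 15.8 to 19.0 CPM at 8 h, with CD8B at 0 in every library. The 11 myeloid markers summed to 1.61 to 2.68 CPM at 12 h and 2.03 to 2.79 CPM at 8 h, with FCGR3A, S100A8 and S100A9 at 0. The 14 stromal and epithelial markers summed to 105 to 124 CPM at 12 h and 93.7 to 133 CPM at 8 h, led by KRT18, with KRT19 at 0. None of the 13 tested genes of these 3 lists was called in the fit of all pairs, against 4.48% higher and 4.71% lower of all tested genes. In a fit of the dmso and Combo pairs alone, 2 stromal and epithelial markers were higher and 1 myeloid marker was lower. Of all genes tested in that fit, 16.8% were higher and 15.7% lower.

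Of the 8 libraries, 2 stood apart from the others of their time, and the counts over all pairs below move with them. For each library, every gene's level was set against that gene's average, and Spearman's rho of this deviation with transcript length, across genes, was 0.40, 0.35, -0.40 and 0.25 in the 12 h dmso, ibr, pol5551 and Combo libraries, against -0.32, 0.43, -0.42 and -0.32 at 8 h. The 12 h pol5551 library thus leaned towards short transcripts, as 3 of the 8 h libraries did, and the 8 h ibr library leaned towards long ones, as 3 of the 12 h libraries did. The library nearest to 12 h pol5551 was 8 h pol5551 (r = 0.993), and the one nearest to 8 h ibr was 12 h dmso (r = 0.992), both across genes. The dmso and Combo pairs carried a length trend and the other pairs did not. Median differences in the dmso and Combo pairs were 0.42 and 0.49 for the 246 tested genes with transcripts over 12000 bases, and -0.34 and -0.32 for the 952 genes of 501 to 1000 bases. In the ibr and pol5551 pairs the same bins gave -0.03 and -0.06, and 0.07 and 0.01. Spearman's rho of the pair differences with GC content was -0.29, -0.24, 0.02 and -0.35 in the dmso, ibr, pol5551 and Combo pairs. The ibr pair thus carried a GC trend though no length trend. The cause of these leanings was not tested, and whether the time labels of these 2 libraries are right was not tested either. The ibr and pol5551 pair differences, the calls over all pairs and the contrasts between pairs all rest on those labels; the dmso and Combo pairs do not. Results are given for all 4 pairs, for the dmso and Combo pairs, for the ibr and pol5551 pairs, without the 12 h pol5551 and 8 h ibr libraries, and after each library's trend with transcript length and GC content was removed.

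**Figure D1:**
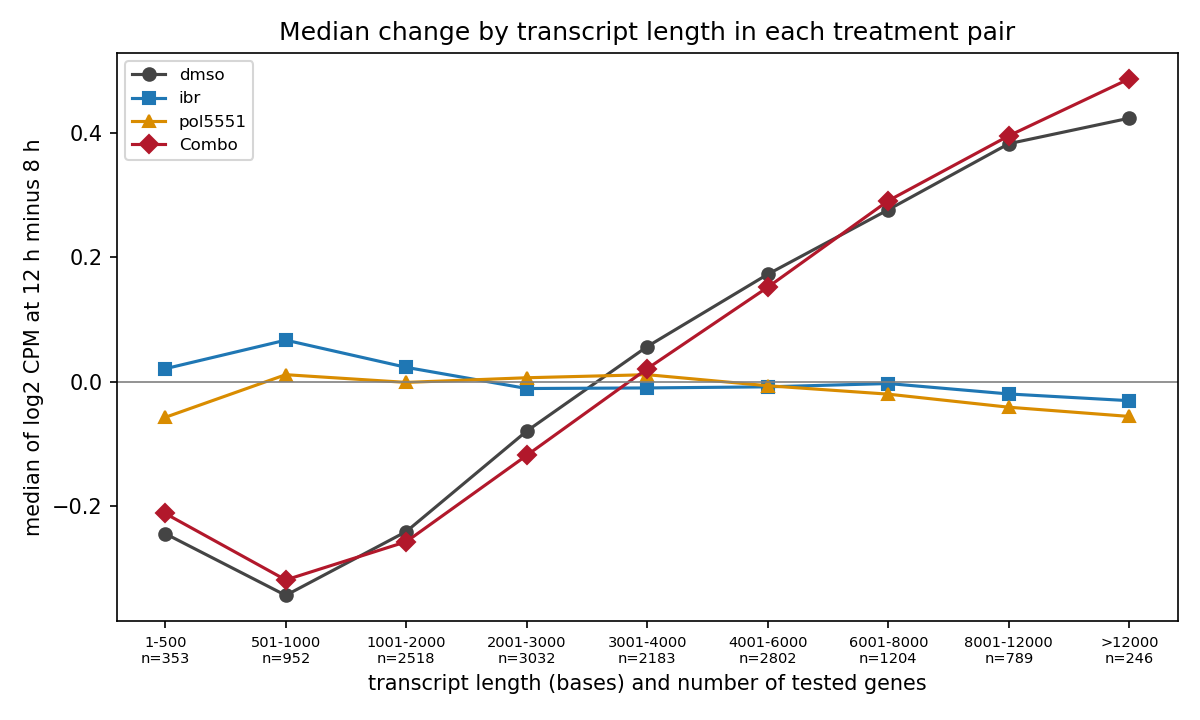
Median of log2 CPM at 12 h minus 8 h (vertical axis) over the tested genes of 9 ranges of transcript length in bases (horizontal axis, with the number of genes), 1 line per header treatment. The dmso and Combo lines climb with length to 0.42 and 0.49, whereas the ibr and pol5551 lines stay between -0.06 and 0.07.

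Over all 4 pairs, 635 of 14171 tested genes were higher at 12 h than at 8 h (4.48%) and 667 were lower (4.71%). Scaling by library totals alone gave 881 higher and 348 lower, and removing the length and GC trend gave 594 higher and 1038 lower, so the balance of directions depends on scaling. Of the 1302 called genes, 1235 had the same sign of difference in all 4 pairs, as did 4661 of all tested genes (32.9%). With the 8 and 12 h libraries alone in the fit, 204 genes were called. Single libraries decided the number of calls: it was 28 without the 8 h dmso library, 30 without 8 h Combo, 53 without 12 h dmso, 33 without 12 h Combo, 222 without 12 h ibr and 417 without 8 h pol5551. Without the 8 h ibr library it was 2402, without 12 h pol5551 it was 3094, and without both 4887. By the size of the difference alone, with no test, 24 of 10113 genes with a mean log2 CPM of at least 2 differed by 0.5 or more in the same direction in all 4 pairs (0.237%), 12 higher and 12 lower. All 24 were called, and 23 were called with the trend removed. The 24 were chosen by differences in these same libraries, so the calls are not independent of that choice.

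In the scatter of pair differences, the dmso and Combo pairs correlated at r = 0.61 over 14171 genes and the ibr and pol5551 pairs at r = 0.23, and the pairs on either side share no library. Genes are not independent replicates, and the length trend is common to the first 2 pairs, so both values are descriptions. The spread of pair differences was also wider in the dmso and Combo pairs, with an SD over genes of 0.48 and 0.49, against 0.35 and 0.34 in the ibr and pol5551 pairs.

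**Figure D2:**
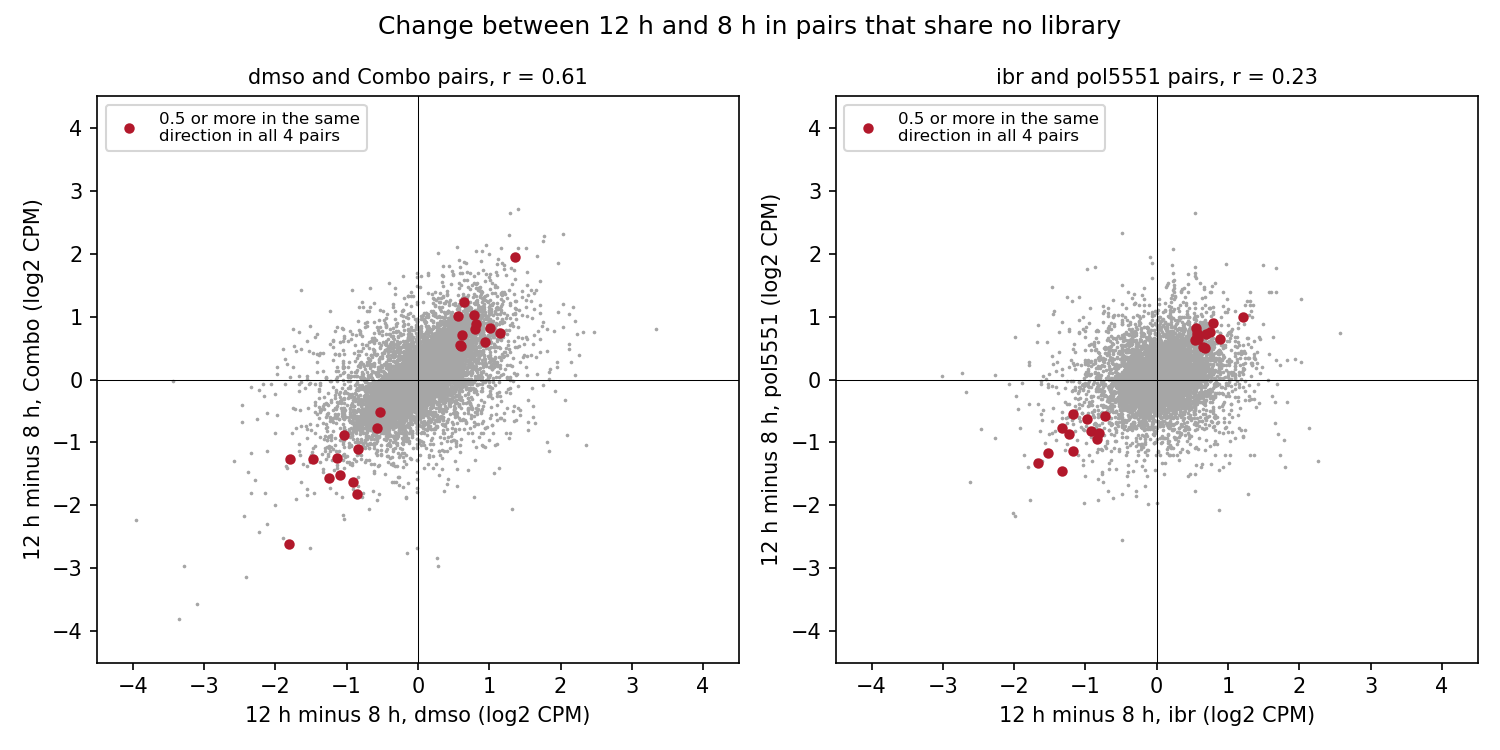
Each point is a tested gene, placed by its log2 CPM at 12 h minus 8 h in the dmso and Combo pairs (left) and in the ibr and pol5551 pairs (right). The left cloud is drawn out along the diagonal (r = 0.61) and the right one less so (r = 0.23). The 24 genes past 0.5 in all 4 pairs, in red, sit in the lower left and upper right of both, which follows from how they were chosen.

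RBM14, which encodes an RNA-binding coactivator found in paraspeckles, fell in the fit of all pairs, in the dmso and Combo pairs and in the ibr and pol5551 pairs. In the order dmso, ibr, pol5551 and Combo, which all values below follow, RBM14 had 85.9, 81.9, 80.4 and 74.0 CPM at 12 h, against 154, 147, 155 and 158 CPM at 8 h. All 12 h libraries lay below all 8 h libraries, the closest values being 85.9 CPM at 12 h and 147 CPM at 8 h. At 4 h it had 85.0, 94.8, 92.1 and 93.8 CPM, close to the 12 h level, so that the 8 h libraries stood above both other times. Means were 80.5 ± 4.95 CPM at 12 h and 154 ± 4.97 CPM at 8 h (SD, n = 4 each), and the fold change was -0.93 ± 0.08 (SE), adjusted p = 2.7e-05. In the 6 ibr and pol5551 libraries alone, RBM14 was the 1 gene called of 14219 tested (0.00703%), at -0.90 with an adjusted p of 0.00379; 1278 genes had an unadjusted p under 0.05 there. It was also called with the trend removed and whichever of the 8 libraries was left out. SFPQ, another paraspeckle protein and splicing factor, had 389, 403, 413 and 324 CPM at 12 h, against 532, 572, 598 and 527 CPM at 8 h. Its groups did not overlap either, and its fold change was -0.55 ± 0.08 (SE), adjusted p = 0.00402; unlike RBM14 it stood highest at 4 h, with 719, 704, 609 and 633 CPM.

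RBM14, SFPQ and 21 other genes were called whichever of the 8 libraries was left out, a set chosen after its values were seen. Those 23 of the 1302 called genes are CCL22, LMNA, IGFBP2, RSPH1, FEZ1, RBM14, STAG3, CKB, HTR3A, PTPRF, P3H2, EEF1A2, DYNLL1, ALDOC and SFPQ, which fell, and SSPN, SEC31B, NR1D2, ARHGEF6, TRIM22, ZNF804A, EPM2AIP1 and SERPINA9, which rose. All 23 were also called without the 12 h pol5551 and 8 h ibr libraries and with the trend removed. In the ibr and pol5551 pairs alone only RBM14 of them was called, though each had the same sign there. The set was chosen by calls in fits of these same libraries, so the further calls and the shared sign are not independent of that choice.

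CCL22, IGFBP2 and EBI3, whose products are secreted, fell. CCL22, a chemokine that attracts CCR4-bearing T cells, had 6.24, 4.90, 10.0 and 2.85 CPM at 12 h, against 22.1, 14.3, 22.6 and 18.0 CPM at 8 h. All 12 h libraries were below all 8 h libraries, with the lowest level in the 12 h Combo library and the highest 12 h level with pol5551. Means were 6.0 ± 3.01 CPM at 12 h and 19.2 ± 3.88 CPM at 8 h (SD, n = 4 each), and the fold change of -1.74 ± 0.21 (SE), adjusted p = 0.000911, was the largest fall among genes named by the rule. CCL22 was higher still at 4 h, with 37.9, 31.3, 26.5 and 24.2 CPM. IGFBP2, a secreted binder of insulin-like growth factors, had 4.13, 3.24, 4.06 and 5.07 CPM at 12 h, against 11.6, 8.24, 11.3 and 12.2 CPM at 8 h. Its groups did not overlap and its 4 pair differences lay close together, at -1.47, -1.33, -1.46 and -1.26; the fold change was -1.39 ± 0.15 (SE), adjusted p = 0.000394. EBI3, a subunit shared by the cytokines IL-27 and IL-35, had 23.5, 14.2, 32.1 and 11.7 CPM at 12 h, against 42.8, 32.0, 46.8 and 41.4 CPM at 8 h. The pol5551 library at 12 h reached the 8 h ibr level, so the groups overlapped, and the fold change was -1.04 ± 0.23 (SE), adjusted p = 0.0213.

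LMNA, FSCN1, FEZ1, RSPH1 and DYNLL1, whose products belong to the nuclear lamina or the cytoskeleton, also fell. These genes, like the secreted ones above, were grouped after their values were seen, with no gene list behind them. Not every gene of such a role fell: SYNE2, which links nucleus and cytoskeleton, rose by 0.82. LMNA, which encodes the nuclear lamins A and C, had 2.77, 2.22, 2.83 and 3.15 CPM at 12 h, against 9.80, 7.21, 7.19 and 7.66 CPM at 8 h. Each 12 h library was below each 8 h library, and the 12 h values lay within 1 CPM of each other; the fold change was -1.52 ± 0.15 (SE), adjusted p = 0.000186. FSCN1, which encodes the actin-bundling protein fascin, had 2.47, 3.03, 3.07 and 2.55 CPM at 12 h, against 5.36, 5.36, 5.63 and 7.46 CPM at 8 h, with no overlap and a fold change of -1.10 ± 0.19 (SE), adjusted p = 0.0104. FEZ1, an adaptor for kinesin transport, had 13.9, 9.71, 15.6 and 9.38 CPM at 12 h, against 26.4, 22.9, 28.6 and 29.1 CPM at 8 h; the groups were apart, and the fold change was -1.16 ± 0.14 (SE), adjusted p = 0.00116. RSPH1, a component of the radial spokes of cilia, had 5.89, 4.20, 8.23 and 4.62 CPM at 12 h, against 14.1, 10.6, 14.2 and 13.8 CPM at 8 h, also without overlap, at -1.22 ± 0.16 (SE), adjusted p = 0.00199. DYNLL1, a light chain of the dynein motor, was far more abundant, with 206, 199, 268 and 201 CPM at 12 h, against 372, 278, 364 and 398 CPM at 8 h. Its highest 12 h library was pol5551 and its lowest 8 h library was ibr, yet the groups did not meet, and the fold change was -0.69 ± 0.10 (SE), adjusted p = 0.00259.

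Of the other falling genes named by the rule, STAG3, a cohesin subunit used in meiosis, had 9.66, 8.39, 8.13 and 4.35 CPM at 12 h, against 19.9, 16.0, 14.4 and 8.10 CPM at 8 h. The treatments differed in level, so the groups overlapped, but the pair differences were alike (-1.03, -0.93, -0.82 and -0.88), and the fold change was -0.92 ± 0.10 (SE), adjusted p = 0.000394. CKB, the brain-type creatine kinase that buffers ATP, had 86.3, 79.0, 117 and 78.7 CPM at 12 h, against 189.8, 131, 174 and 187 CPM at 8 h. No 12 h library reached the 8 h range, and the dmso and Combo pairs differed more (-1.14 and -1.25) than the ibr and pol5551 pairs (-0.72 and -0.57); the fold change was -0.91 ± 0.13 (SE), adjusted p = 0.00306. LSAMP, a cell adhesion molecule anchored in the outer membrane, had 2.01, 1.77, 3.02 and 1.24 CPM at 12 h, against 4.54, 4.01, 3.73 and 3.44 CPM at 8 h, with a fold change of -0.98 ± 0.21 (SE), adjusted p = 0.0193. The antisense gene ENSG00000273149 on chromosome 13 fell at -1.10 (adjusted p = 0.0113); no source used here says whether counting used strand, and its reads cannot be told apart from those of the opposite strand. The calls of ENSG00000273149, FSCN1, EBI3 and LSAMP each ended without the 8 h Combo library and without the 12 h Combo library. That of ENSG00000273149 also ended without 12 h dmso, that of FSCN1 without 8 h dmso, those of EBI3 and LSAMP without 8 h dmso, 12 h dmso or 12 h ibr, and that of EBI3 without 8 h pol5551. HTR3A, a subunit of the serotonin-gated ion channel, had 1.21, 1.47, 1.88 and 0.788 CPM at 12 h, against 4.59, 3.62, 3.08 and 2.18 CPM at 8 h; its groups were apart, at -1.32 ± 0.19 (SE), adjusted p = 0.00383.

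**Figure D3:**
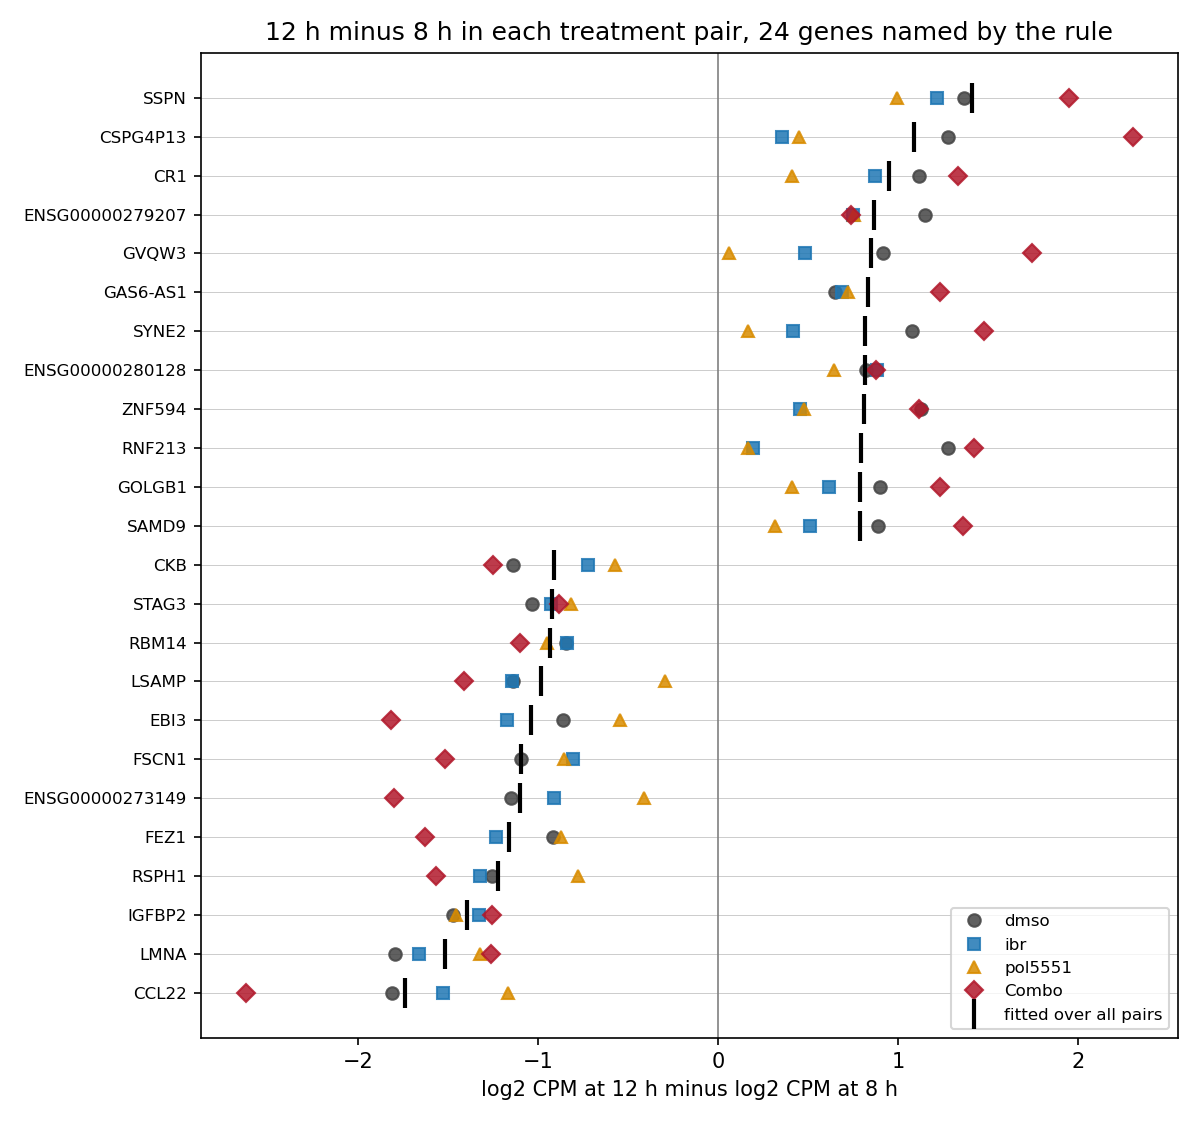
Log2 CPM at 12 h minus 8 h (horizontal axis) in each header treatment for the 24 genes named by the rule, with the fitted fold change over all pairs as a black bar. CCL22, LMNA and IGFBP2 lie below -1 in every pair, whereas for CSPG4P13, RNF213 and SYNE2 the ibr and pol5551 points lie far nearer to 0 than the Combo point.

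Among the named genes that rose, SSPN had the largest fold change. It encodes sarcospan, a membrane protein of the dystrophin-glycoprotein complex, and had 9.36, 12.6, 7.73 and 10.8 CPM at 12 h, against 3.57, 5.36, 3.84 and 2.72 CPM at 8 h. The lowest 12 h value, with pol5551, was above the highest 8 h value, with ibr; means were 10.1 ± 2.07 CPM at 12 h and 3.88 ± 1.10 CPM at 8 h (SD, n = 4 each), and the fold change was 1.41 ± 0.18 (SE), adjusted p = 0.0017. SEC31B, a coat component of vesicles that leave the endoplasmic reticulum, had 22.5, 18.8, 19.2 and 20.5 CPM at 12 h, against 11.1, 12.5, 12.3 and 11.6 CPM at 8 h. The groups did not overlap, and the fold change was 0.77 ± 0.11 (SE), adjusted p = 0.00306. TRIM22, an interferon-inducible ubiquitin ligase, had 137, 149, 119.9 and 156 CPM at 12 h, against 81.0, 106, 82.4 and 89.1 CPM at 8 h; the 12 h libraries were all above the 8 h libraries, at 0.65 ± 0.09 (SE), adjusted p = 0.0024. SERPINA9, a serpin of germinal centre B cells also called centerin, had 159.6, 181, 156 and 118 CPM at 12 h, against 125, 122, 103 and 79.9 CPM at 8 h. Its Combo libraries were the lowest at each time, so the groups overlapped, but all 4 pairs were higher at 12 h (0.36, 0.56, 0.60 and 0.57), at 0.52 ± 0.08 (SE), adjusted p = 0.00658. ARHGEF6, a guanine nucleotide exchange factor, changed by 0.66 ± 0.10 (SE), adjusted p = 0.00402, the zinc finger gene ZNF804A by 0.63 ± 0.09 (SE), adjusted p = 0.00402, and EPM2AIP1, a partner of laforin, by 0.61 ± 0.09 (SE), adjusted p = 0.00383.

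Several other genes named for large rises encode very long transcripts, and in these the 12 h pol5551 library stayed near the 8 h level. RNF213, a giant ubiquitin ligase with a transcript of 21055 bases, had 75.2, 80.6, 32.3 and 94.2 CPM at 12 h, against 30.9, 70.6, 28.7 and 35.1 CPM at 8 h. The difference was 1.28 and 1.42 in the dmso and Combo pairs, against 0.19 and 0.17 in the ibr and pol5551 pairs, with 8 h ibr high and 12 h pol5551 low. SYNE2, a nesprin that links nucleus and cytoskeleton (21842 bases), had 50.5, 58.3, 22.4 and 75.4 CPM at 12 h, against 23.9, 43.7, 19.9 and 27.0 CPM at 8 h. GOLGB1, which encodes the Golgi tether giantin (11198 bases), had 101, 119.9, 61.0 and 103 CPM at 12 h, against 54.3, 78.2, 45.8 and 43.8 CPM at 8 h. With the trend removed, these 3 kept a call at fold changes of 0.60, 0.56 and 0.57, against 0.79, 0.82 and 0.79 without that step. CR1, a receptor for complement fragments, rose by 0.95 ± 0.16 (SE), adjusted p = 0.0104, and SAMD9, an antiviral gene induced by interferon, by 0.79 ± 0.16 (SE), adjusted p = 0.0175. ZNF594, GVQW3 and the pseudogene CSPG4P13 rose by 0.81, 0.85 and 1.09, with adjusted p-values of 0.0144, 0.0291 and 0.0344; reads of CSPG4P13 and its near-identical copies may be split by the counting. The call of each of these 8 genes ended when any 1 of the 4 dmso and Combo libraries was left out.

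Another 3 named non-coding or unclassified genes rose. ENSG00000280128 on chromosome 6 had 9.26, 9.71, 8.48 and 9.08 CPM at 12 h, against 5.21, 5.22, 5.40 and 4.90 CPM at 8 h. The groups were apart with little spread at either time, and the fold change was 0.82 ± 0.14 (SE), adjusted p = 0.0104. ENSG00000279207 on chromosome 17 changed by 0.86 ± 0.16 (SE), adjusted p = 0.011, and GAS6-AS1, antisense to the gene of the growth factor GAS6, by 0.83 ± 0.15 (SE), adjusted p = 0.011. Neither of them overlapped between times, and the strand limit given above holds for GAS6-AS1. Each of these 3 calls was lost without the 8 h dmso library and without at least 1 other dmso or Combo library.

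Of the circadian clock list, 2 of 14 tested genes rose and 1 fell, against 4.48% higher and 4.71% lower of all tested genes, with a median fold change of 0.20, against 0.01 over all tested genes. NR1D2, which encodes the clock repressor REV-ERB beta, had 20.2, 24.3, 18.9 and 22.4 CPM at 12 h, against 11.7, 15.1, 13.3 and 10.9 CPM at 8 h. Every 12 h library was above every 8 h library, means were 21.4 ± 2.39 CPM at 12 h and 12.8 ± 1.87 CPM at 8 h (SD, n = 4 each), and the fold change was 0.76 ± 0.10 (SE), adjusted p = 0.00179. At 4 h it had 18.2, 19.3, 17.3 and 16.2 CPM, so that the 8 h libraries held the lowest level of the 3 times. RORA, an activator that competes with REV-ERB proteins, rose by 0.59 ± 0.15 (SE), adjusted p = 0.0322, but its difference was 0.88 and 0.92 in the dmso and Combo pairs against 0.30 and 0.20 in the ibr and pol5551 pairs, and with the trend removed it was no longer called (adjusted p = 0.0833). BHLHE40, a repressor that binds E-boxes, fell, at -0.28 ± 0.08 (SE), adjusted p = 0.0491, a call lost whichever library was left out, and was not called in the dmso and Combo pairs (adjusted p = 0.301). PER1, PER2 and PER3, the period repressors of the clock, had fold changes of 0.35, 0.12 and 0.31 that did not pass over all pairs; in the fit of the dmso and Combo pairs alone, where 16.8% of all tested genes rose and 15.7% fell, 7 clock genes rose and none fell.

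The promoter of NR1D2 is shown because it holds E-box and D-box letters, which clock factors bind. The window runs 250 bases before to 50 bases after a RefSeq start at chr3:23945871-23946170 (GRCh38.p14, plus strand, which is the strand printed), and capitals mark matches to the E-box CACGTG, which reads the same on both strands, and to the D-box TTATGNAA on either strand. It held 2 E-boxes and 1 D-box. Of 35116 RefSeq promoter windows of that length, counting every window of a gene, 7.26% held the E-box letters and 3.3% the D-box letters. BHLHE40 also had an E-box and RORA had neither.
NR1D2: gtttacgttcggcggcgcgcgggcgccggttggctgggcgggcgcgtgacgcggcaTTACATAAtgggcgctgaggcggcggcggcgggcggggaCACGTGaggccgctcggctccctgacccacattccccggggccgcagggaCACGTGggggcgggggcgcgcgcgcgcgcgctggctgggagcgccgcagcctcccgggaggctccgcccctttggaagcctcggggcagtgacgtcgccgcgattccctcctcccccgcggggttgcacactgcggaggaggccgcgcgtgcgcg
A match describes letters, not binding, and a window without one says nothing of the factor.

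**Figure D4:**
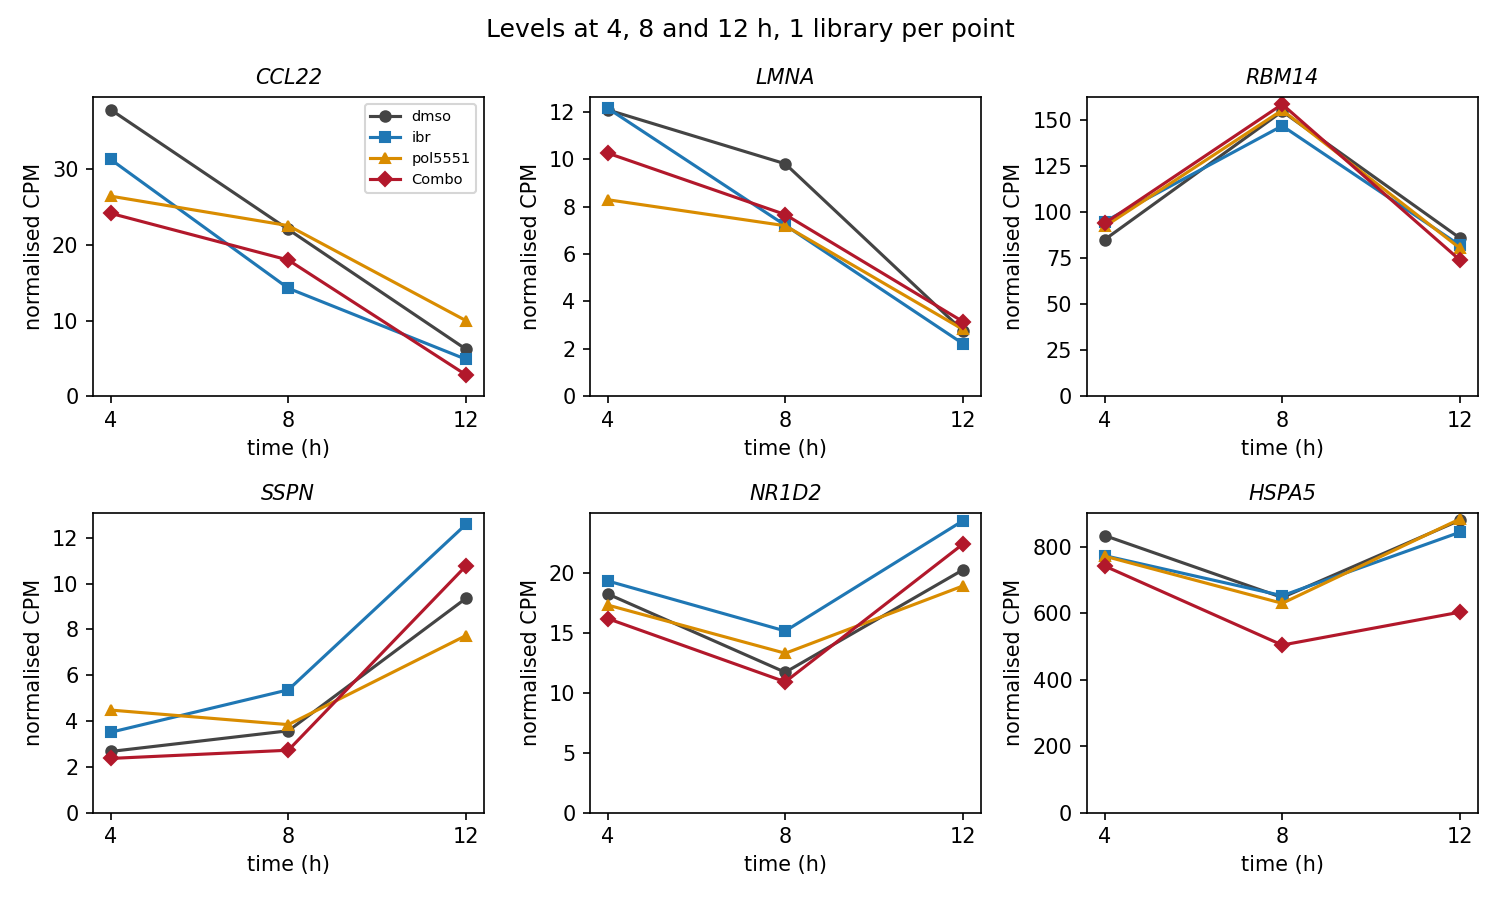
Normalised CPM (vertical axis, from 0) at 4, 8 and 12 h (horizontal axis) for 6 genes, 1 line per header treatment and 1 library per point. CCL22 and LMNA are lowest at 12 h in every treatment, RBM14 stands highest at 8 h, SSPN is highest at 12 h, and NR1D2 and HSPA5 are lowest at 8 h.

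Of 23 tested genes for amino acid and unfolded protein stress, 4 rose and none fell in the fit of all pairs, against 4.48% and 4.71% of all tested genes, with a median of -0.06. In the dmso and Combo pairs 4 rose and 4 fell, which is near the 16.8% and 15.7% of all tested genes. The 4 that rose are known targets of the unfolded protein response in the endoplasmic reticulum. HSPA5, its main chaperone BiP, had 881, 844, 884 and 604 CPM at 12 h, against 648, 653, 630.4 and 505 CPM at 8 h. Every pair was higher at 12 h, the Combo pair least, and with Combo low at both times the groups overlapped; the fold change was 0.39 ± 0.08 (SE), adjusted p = 0.019. XBP1, the transcription factor of that response, had 86.0, 78.7, 95.9 and 56.3 CPM at 12 h, against 59.5, 57.7, 65.3 and 49.0 CPM at 8 h, at 0.44 ± 0.08 (SE), adjusted p = 0.0154. DNAJB9, a co-chaperone of BiP, had 28.3, 31.4, 33.0 and 23.7 CPM at 12 h, against 20.4, 18.9, 23.8 and 17.8 CPM at 8 h, at 0.53 ± 0.10 (SE), adjusted p = 0.012. HERPUD1, which serves the removal of misfolded proteins, had 64.6, 57.0, 70.9 and 40.6 CPM at 12 h, against 44.2, 40.3, 52.0 and 40.8 CPM at 8 h. Its Combo libraries had nearly the same level while the other 3 pairs differed by 0.45 to 0.55, and the fold change was 0.37 ± 0.09 (SE), adjusted p = 0.0295, not called in the dmso and Combo pairs (adjusted p = 0.076). The other 19 tested genes of this list, SDF2L1 and PPP1R15A among them, were not called over all pairs. Of these, the transcription factor ATF4 had a fold change of -0.14 and DDIT3, which encodes CHOP, 0.20. ATF4 fell in the dmso and Combo pairs, at -0.32. All 4 calls were kept with the trend removed, and each was lost without the 8 h dmso, the 8 h Combo or the 12 h dmso library. At 4 h HSPA5 had 835, 774, 772 and 743 CPM, again above the 8 h libraries.

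The windows of 3 of these genes are shown because they hold the letters that ATF6 and NF-Y bind in chaperone promoters. Both strands were searched for ERSE, which is CCAAT and CCACG with 9 free bases between, and ERSE-II, which is ATTGG and CCACG with 1 free base between, so that both end in CCACG; all 35116 windows held 27 with ERSE (0.077%) and 19 with ERSE-II (0.054%). Of the 4 genes, HSPA5 and XBP1 held ERSE, HERPUD1 held ERSE-II and DNAJB9 held neither. The windows lie at chr9:125241294-125241593 (minus strand), chr22:28800520-28800819 (minus strand, the one of 2 XBP1 windows with a match) and chr16:56931892-56932191 (plus strand) in GRCh38.p14 and come from RefSeq. Each is printed on the gene's strand, with the match in capitals.
HSPA5: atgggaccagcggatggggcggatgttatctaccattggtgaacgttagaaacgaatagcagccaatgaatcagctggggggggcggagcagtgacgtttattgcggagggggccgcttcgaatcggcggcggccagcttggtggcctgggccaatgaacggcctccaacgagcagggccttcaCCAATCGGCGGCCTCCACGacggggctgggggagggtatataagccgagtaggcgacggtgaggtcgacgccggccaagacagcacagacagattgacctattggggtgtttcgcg
XBP1: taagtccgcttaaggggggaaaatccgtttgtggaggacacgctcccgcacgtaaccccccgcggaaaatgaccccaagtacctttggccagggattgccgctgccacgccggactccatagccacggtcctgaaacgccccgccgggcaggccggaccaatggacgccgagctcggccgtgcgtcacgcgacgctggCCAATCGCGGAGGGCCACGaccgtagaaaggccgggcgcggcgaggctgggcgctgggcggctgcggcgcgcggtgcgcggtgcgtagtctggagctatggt
HERPUD1: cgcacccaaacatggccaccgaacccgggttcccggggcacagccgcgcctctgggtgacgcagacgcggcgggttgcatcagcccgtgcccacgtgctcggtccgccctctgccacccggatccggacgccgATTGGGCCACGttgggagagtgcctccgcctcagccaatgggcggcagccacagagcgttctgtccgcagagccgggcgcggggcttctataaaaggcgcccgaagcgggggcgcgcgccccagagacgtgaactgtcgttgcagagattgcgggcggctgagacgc
The matches start at bases 185, 199 and 134 of the 300 bases of HSPA5, XBP1 and HERPUD1.

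Genes of sterol synthesis had like medians in the 4 pairs. Of 22 tested genes, 6 fell and none rose, against 4.71% and 4.48% of all tested genes, with a median of -0.28. Medians were -0.24, -0.26, -0.26 and -0.36 in the dmso, ibr, pol5551 and Combo pairs, and 14 genes were lower in all 4 pairs, as were 2360 of 14171 tested genes. With the trend removed 12 fell, against 1038 of all 14171 tested genes. MVK, mevalonate kinase, had 75.0, 69.8, 71.4 and 49.4 CPM at 12 h, against 113, 101, 91.0 and 85.9 CPM at 8 h. All 12 h libraries were below all 8 h libraries, at -0.56 ± 0.10 (SE), adjusted p = 0.011. MVD, the decarboxylase of the same branch, had 44.0, 43.7, 47.1 and 33.0 CPM at 12 h, against 72.2, 55.7, 56.5 and 66.8 CPM at 8 h, also without overlap, at -0.57 ± 0.13 (SE), adjusted p = 0.0216. DHCR7, which completes cholesterol, had 204, 163, 148 and 101 CPM at 12 h, against 262, 252, 204 and 159.9 CPM at 8 h. The level differed between treatments so that the groups overlapped, but every pair was lower at 12 h (-0.36, -0.63, -0.47 and -0.66), at -0.52 ± 0.11 (SE), adjusted p = 0.019. EBP, NSDHL and HSD17B7, which act between lanosterol and cholesterol, fell by 0.45, 0.43 and 0.36 on the log2 scale, with adjusted p-values of 0.019, 0.018 and 0.0357. HMGCS1, a synthase early in the pathway, did not pass, at -0.33 (adjusted p = 0.16), nor did INSIG1, which retains SREBP in the endoplasmic reticulum, at -0.34; INSIG1 fell in the dmso and Combo pairs. The 6 calls over all pairs each depended on single libraries: those of MVK, MVD and DHCR7 ended without 8 h dmso, 8 h Combo or 12 h Combo. At 4 h MVK had 64.5, 68.5, 64.5 and 70.5 CPM and MVD 35.5, 34.4, 31.3 and 46.8 CPM, below the 8 h libraries of both genes. The letters of the sterol regulatory element, searched on both strands, were in none of the windows of the 6 genes that fell and in 16 of all 35116 windows (0.046%), which says only that these letters are not in those windows.

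Of 11 fatty acid synthesis genes, 3 fell and none rose, against 4.71% and 4.48% of all tested genes, with a median of -0.16. FADS2, a fatty acid desaturase, had 186, 158, 148 and 119.6 CPM at 12 h, against 222, 240.4, 199 and 172 CPM at 8 h, at -0.45 ± 0.08 (SE), adjusted p = 0.011. SCD, the stearoyl-CoA desaturase, had 1315, 1177, 853 and 713 CPM at 12 h, against 1373, 1749, 1204 and 942 CPM at 8 h. Its dmso pair hardly differed, and the fold change was -0.38 ± 0.10 (SE), adjusted p = 0.0364; it was not called in the dmso and Combo pairs. SREBF1, the SREBP gene of this branch, changed by -0.27 ± 0.08 (SE), adjusted p = 0.0498. In the dmso and Combo pairs 4 genes of this list rose and 2 fell, against 16.8% and 15.7% of all tested genes.

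The hypoxia and glycolysis list had 7 genes lower and 1 higher of 30, against 4.71% and 4.48% of all tested genes, with a median of -0.21. After removal of the trend 8 were lower and 1 higher, at a median of -0.12, against 1038 lower and 594 higher of all 14171 tested genes. ALDOC, an aldolase of glycolysis, had 51.0, 52.3, 59.2 and 42.8 CPM at 12 h, against 92.8, 75.8, 79.6 and 82.1 CPM at 8 h. The groups were apart, the fold change was -0.69 ± 0.09 (SE), adjusted p = 0.00179, and the call was kept without any single library. ENO1, the enolase, had 2549.9, 2281, 2779 and 1719 CPM at 12 h, against 3464, 2806, 3077 and 2717 CPM at 8 h, at -0.38 ± 0.09 (SE), adjusted p = 0.0257. ALDOA, GPI and PGK1, other glycolytic enzymes, fell by 0.36, 0.26 and 0.26, and PFKFB4, a regulator of glycolytic flux, by 0.54, all on the log2 scale. CA9, the carbonic anhydrase that HIF induces, was near 0 CPM, with 0.101, 0.0506, 0.446 and 0.0751 CPM at 12 h, against 0.613, 0.675, 0.837 and 0.851 CPM at 8 h, at -2.17 ± 0.49 (SE), adjusted p = 0.0213. KDM3A, a histone demethylase also induced by HIF, rose by 0.37 ± 0.10 (SE), adjusted p = 0.035. Of this list, only ALDOC was called in each of the 8 fits that left out 1 library.

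**Figure D5:**
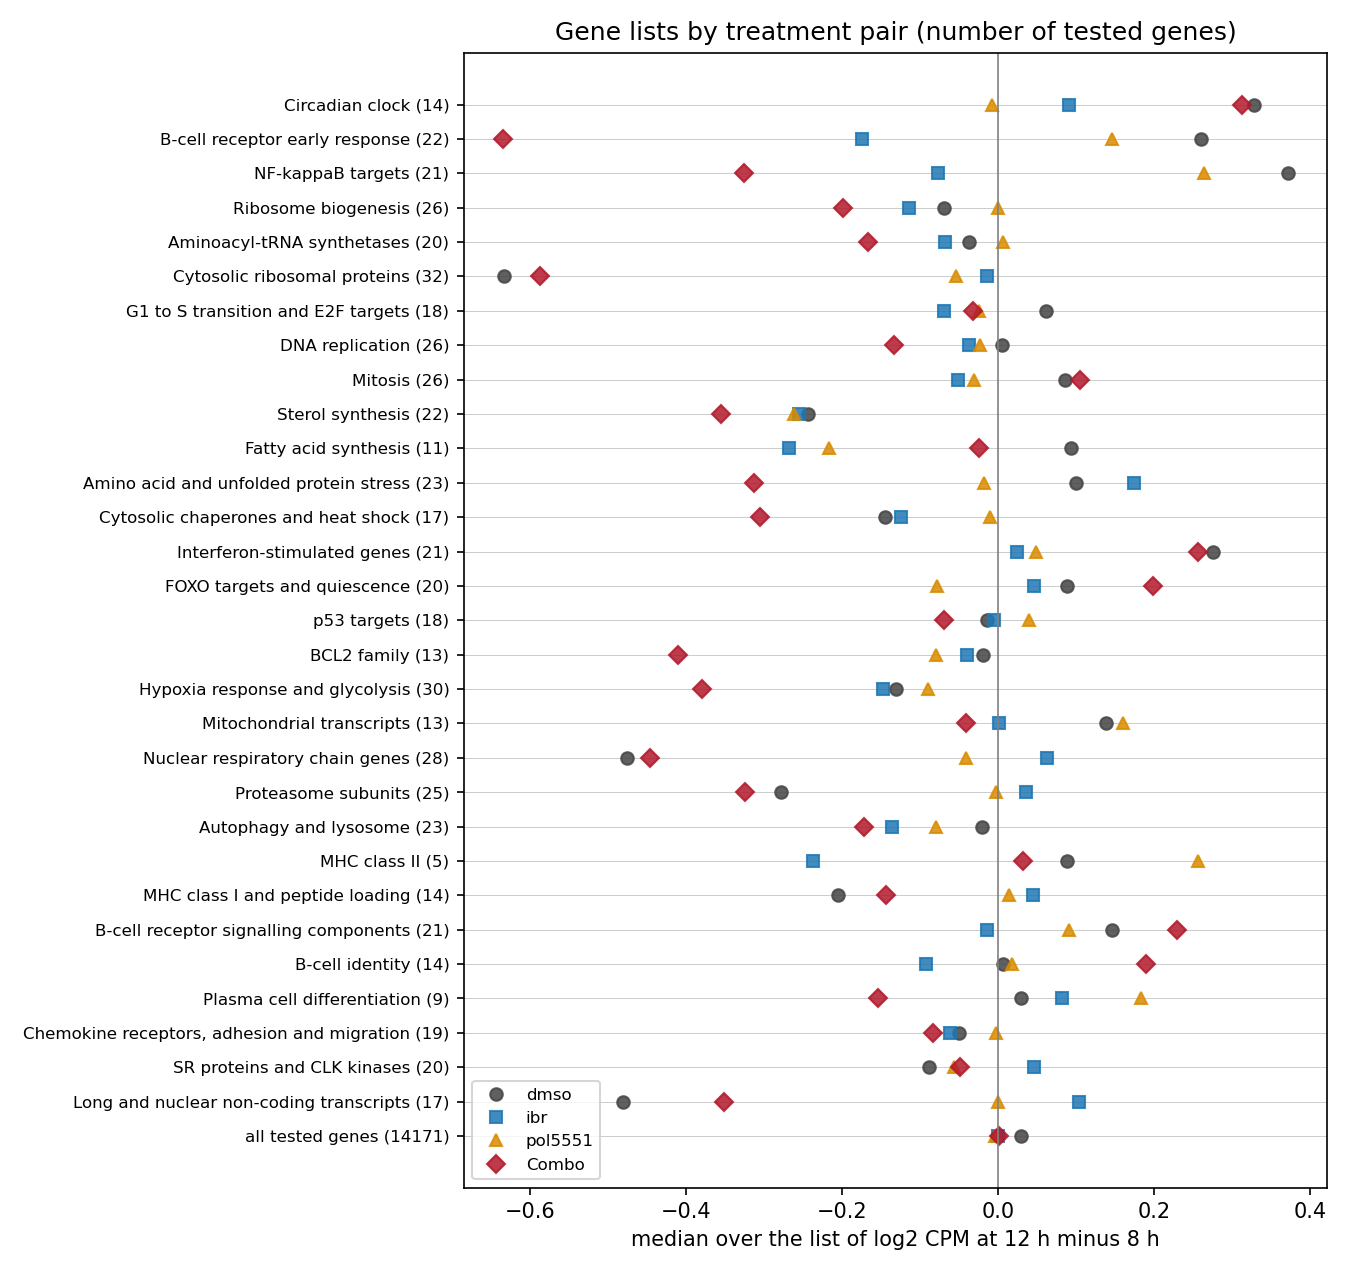
Median over each gene list of log2 CPM at 12 h minus 8 h (horizontal axis) in the 4 header treatments, with the number of tested genes in brackets. Sterol synthesis has 4 like medians between -0.36 and -0.24, ribosomal proteins split into -0.63 and -0.59 (dmso and Combo) and -0.01 and -0.05 (ibr and pol5551), and early B-cell receptor genes span -0.63 to 0.26.

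Restricted to the dmso and Combo pairs, 2419 of 14362 tested genes were higher at 12 h (16.8%) and 2259 lower (15.7%). Scaling by library totals gave 3187 higher and 1572 lower, and removing the trend 978 higher and 1607 lower, 2585 in all. Leaving out 1 of the 4 libraries of these pairs left 1996 (8 h Combo), 2397 (12 h Combo), 2662 (12 h dmso) or 3031 (8 h dmso) calls, in a fit with 2 residual degrees of freedom when complete. CCL22 had the largest fall of the named genes here too, at -2.21, and LMNA was among the 5 named, at -1.53. The long non-coding genes ENSG00000263731 and ENSG00000260257 fell by 1.85 and 1.68 on the log2 scale, with 0.58 and 0.01 in the ibr pair. SSPN and CSPG4P13 led the rises, at 1.70 and 1.78. ENSG00000273149, the antisense gene named above, fell by 1.54 here.

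Another 3 genes named in this fit showed the contrast between pairs. UTRN, the dystrophin relative utrophin, had 9.96, 9.40, 3.47 and 10.8 CPM at 12 h, against 3.88, 6.75, 3.84 and 3.17 CPM at 8 h. In the dmso and Combo pairs it rose by 1.58 (adjusted p = 5.17e-06), while the pol5551 pair gave -0.14. ZBED6, a transcription factor encoded within an intron of another gene, had 12.2, 12.2, 2.33 and 11.3 CPM at 12 h, against 5.41, 12.8, 3.88 and 2.59 CPM at 8 h. It rose by 1.61 in the dmso and Combo pairs, the ibr pair gave -0.06, and over all pairs it was not called (adjusted p = 0.201). ANKRD36C, an ankyrin repeat gene of a family with near-identical copies, rose by 1.57 in the dmso and Combo pairs. In all 3 genes the 12 h pol5551 library was the lowest of the 12 h libraries.

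Most listed genes of ribosomal proteins, the respiratory chain and the proteasome fell in the dmso and Combo pairs. All 32 listed cytosolic ribosomal protein genes fell there, against 15.7% of all tested genes, with a median of -0.60. Over all 4 pairs 7 fell, against 4.71% of all tested genes, with a median of -0.31. After removal of the trend it was 12, against 1038 of all 14171 tested genes. Pair medians were -0.63, -0.01, -0.05 and -0.59. RPL8, of the large subunit, had 1964, 2047, 2759 and 1985 CPM at 12 h, against 3347, 2105, 2989 and 3249 CPM at 8 h. At 12 h the pol5551 library was the highest and at 8 h the ibr library the lowest, so the groups overlapped; the fold change over all pairs was -0.41 ± 0.11 (SE), adjusted p = 0.0382. RPS19, of the small subunit, had 1484, 1532, 2128 and 1451 CPM at 12 h, against 2501, 1598, 2242 and 2276 CPM at 8 h, with the same ordering, at -0.38 ± 0.11 (SE), adjusted p = 0.0467. RPL13, RPS14, RPL18, RPS23 and RPS3 were the other 5 called over all pairs. The median transcript of this list has 1149.5 bases. The part of the length trend in its fall was not tested beyond the counts above. Of 28 nuclear respiratory chain genes, 22 fell and 1 rose in the dmso and Combo pairs, against 15.7% and 16.8% of all tested genes. Over all pairs 3 fell (NDUFV1, COX4I1 and UQCRFS1), against 4.71% of all tested genes. Of 25 proteasome subunit genes, 18 fell and none rose in the dmso and Combo pairs, against the same 15.7% and 16.8%. Over all pairs 2 fell (PSMB5 and PSMD11), against 4.71% of all tested genes. The 13 mitochondrially encoded transcripts had no call over all pairs, with a median of 0.06; the smallest p-values were those of MT-ND4L (0.51, adjusted p = 0.0506), MT-ND5 (0.35, adjusted p = 0.0768) and MT-CO1 (0.22, adjusted p = 0.104) in edgeR's test. In the dmso and Combo pairs 3 were higher and 1 lower, against 16.8% and 15.7% of all tested genes.

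Cell division genes did not move as 1 group. Of 26 mitosis genes 4 rose and 5 fell, against 4.48% and 4.71% of all tested genes, with a median of 0.04. PLK1, a mitotic kinase, had 156, 158, 146 and 147 CPM at 12 h, against 194, 207, 175 and 202 CPM at 8 h. Its groups were apart, at -0.35 ± 0.07 (SE), adjusted p = 0.019. CDC20, an activator of the anaphase-promoting complex, had 224, 219.6, 246 and 209 CPM at 12 h, against 304, 270.4, 271 and 329.6 CPM at 8 h, also apart, at -0.39 ± 0.09 (SE), adjusted p = 0.0214. BIRC5, AURKB and UBE2C fell by 0.40, 0.36 and 0.31 on the log2 scale. Those that rose were CENPF, CENPE, ASPM and HMMR, which serve kinetochores and spindles, at 0.61, 0.44, 0.62 and 0.33; the first 3 have transcripts of 10307, 8612 and 10887 bases. Of 26 DNA replication genes CDT1, MCM7 and TK1 fell and none rose. Of 18 genes of the G1 to S transition, cyclin E2 (CCNE2) rose by 0.51 ± 0.09 (SE), adjusted p = 0.011, and the transcription factor E2F2 fell, at -0.25 ± 0.07 (SE), adjusted p = 0.0433.

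Genes that follow B-cell receptor and NF-kappaB signals had pair medians of different sign. The 22 tested early response genes had medians of 0.26, -0.18, 0.15 and -0.63 in the dmso, ibr, pol5551 and Combo pairs. Over all pairs 1 of them rose and 2 fell, and of 21 NF-kappaB targets 2 rose and 1 fell. These few calls are to be read against 4.48% higher and 4.71% lower of all tested genes. EGR3, an early response factor, had 2.72, 0.202, 2.08 and 0.375 CPM at 12 h, against 1.02, 0.107, 1.18 and 0.136 CPM at 8 h. All 4 pairs were higher at 12 h, but the ibr and Combo libraries were below 0.5 CPM at both times, so the groups overlapped, at 1.12 ± 0.30 (SE), adjusted p = 0.0349. IER2 and NAB2 fell by 0.38 and 0.34. Of 21 NF-kappaB targets, BIRC3, an inhibitor of apoptosis, had 79.3, 47.9, 62.3 and 35.8 CPM at 12 h, against 40.3, 36.9, 47.4 and 23.1 CPM at 8 h, at 0.59 ± 0.10 (SE), adjusted p = 0.0104. TNFAIP2 rose by 0.40 and BCL3, an IkappaB family member, fell by 0.58. BTK, the target of ibrutinib, had 376, 356, 364 and 342 CPM at 12 h, against 307, 332, 294 and 265 CPM at 8 h. It was higher in each 12 h library than in any at 8 h, at 0.27 ± 0.07 (SE), adjusted p = 0.0357, a call that ended without any 1 of 6 of the libraries. CXCR4, the target of SPX5551, had 20.9, 25.3, 21.0 and 24.7 CPM at 12 h, against 26.0, 29, 26.7 and 32.6 CPM at 8 h; the groups did not overlap, but the difference of -0.31 did not pass over all pairs (adjusted p = 0.0754), and in the dmso and Combo pairs it fell, at -0.36 (adjusted p = 0.0256). CD81, a tetraspanin of the B-cell surface, fell, at -0.41 ± 0.08 (SE), adjusted p = 0.0165.

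The calls of the remaining lists over all pairs are to be read against 4.48% higher and 4.71% lower of all tested genes. Several of these lists held a larger share than that in 1 direction. Among them were lower genes of ribosome biogenesis, SR proteins and CLK kinases, autophagy and lysosome, and the BCL2 family. Of 26 ribosome biogenesis genes 5 fell (PES1, RRP9, GAR1, FBL and BOP1) and none rose. Of 20 SR protein and CLK kinase genes, which serve splicing, SRSF5 rose by 0.33, and SRSF3, SRSF9, CLK3, SNRNP70 and LUC7L fell, at -0.34, -0.29, -0.32, -0.26 and -0.48. Of 23 autophagy and lysosome genes, WIPI1 rose by 0.49, and TFEB, NEU1, ATP6V0D1 and ATP6V1H fell, at -0.32, -0.41, -0.28 and -0.37. Of 13 BCL2 family genes the killers BAK1 and BAX and the regulator BCL2L12 fell; BAX was also the 1 call among 18 p53 targets. Of 20 aminoacyl-tRNA synthetase genes, EPRS1 rose by 0.32 and FARSA and YARS1 fell, at -0.34 and -0.27, and among 17 cytosolic chaperones DNAJB4 rose by 0.43 while DNAJA1 and HSPB1 fell, at -0.31 and -0.44. PDCD4, an inhibitor of translation counted with FOXO targets, had 445, 517, 440.4 and 451 CPM at 12 h, against 328, 360.2, 367 and 286 CPM at 8 h. All 12 h libraries were above all 8 h libraries, at 0.48 ± 0.12 (SE), adjusted p = 0.0278, and RBL2 was the other rise among 20. Among 21 interferon-stimulated genes only OAS1 was called, at 0.75. ITGA4 rose while ITGB2 and CXCR3 fell among 19 adhesion and migration genes, CIITA rose among 5 tested MHC class II genes and ERAP1 among 14 of class I, and TCF3 fell among 14 B-cell identity genes. XBP1 and CD38 rose among 9 plasma cell genes, and among 17 long non-coding transcripts KCNQ1OT1, MIR17HG and TUG1 rose, at 0.57, 0.25 and 0.41, and ZFAS1 fell, at -0.49. Of the 97 list genes called over all pairs, 3 remained called without the 8 h dmso library and 2 without 8 h Combo, and ALDOC and NR1D2 were called whichever library was left out.

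The fits with an interaction asked whether the change with time differed between treatments, and which drug each contrast tests holds for the header names only. For ibrutinib exposure (ibr and Combo against dmso and pol5551) no gene was called by edgeR or DESeq2, and 148 had an unadjusted p under 0.05 in edgeR. TNF, an inflammatory cytokine, had 21.7, 4.45, 18.6 and 1.91 CPM at 12 h, against 10.9, 4.19, 8.83 and 1.87 CPM at 8 h. It was higher at 12 h in the dmso and pol5551 pairs (0.98 and 1.07) and hardly differed in the ibr and Combo pairs (0.08 and 0.03), a difference between pairs of -0.97 ± 0.23 (SE), adjusted p = 0.9998 that did not pass. HIVEP3, a zinc finger protein that binds NF-kappaB motifs, had 38.6, 10.6, 18.6 and 6.57 CPM at 12 h, against 21.5, 20.7, 17.5 and 8.72 CPM at 8 h, with an interaction of -1.18 ± 0.27 (SE), adjusted p = 0.9998. The other genes with the smallest p in either direction were GUSBP9 at -2.95, LINC00938 at 0.60, ENSG00000254373 at 2.34 and ENSG00000279198 at 2.35, none of which passed; GUSBP9 and, in the next contrast, SETP14 are pseudogenes whose counts may share reads with other copies. For pol5551 exposure (pol5551 and Combo against dmso and ibr) no gene was called by either tool, and 126 had an unadjusted p under 0.05. CHAC1, an enzyme that degrades glutathione, had 2.92, 3.34, 2.87 and 1.28 CPM at 12 h, against 2.65, 2.24, 7.53 and 2.42 CPM at 8 h, with an interaction of -1.56 ± 0.39 (SE), adjusted p = 0.9999. SETP14, ENSG00000274825 and APOBEC3H were at 1.43, 2.91 and 2.15, and INHBE and BMP6, members of the TGF-beta family below 2 CPM in all 8 libraries, at -3.91 and -3.83; none passed. With 1 library per treatment and time, a p that misses the threshold does not show that the pairs changed alike.

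The ibr and pol5551 pairs against the dmso and Combo pairs gave 1134 of 14171 genes (8%), 495 with a higher and 639 with a lower difference. Scaling by library totals gave 296 and 878, removing the trend left 125 and 44, and leaving out either the 8 h ibr or the 12 h pol5551 library left 0 (edgeR). The genes with the smallest p in either direction divided by transcript length. MACF1, a giant linker of actin and microtubules (24828 bases), had 155, 141, 63.8 and 146 CPM at 12 h, against 83.5, 150.2, 71.8 and 66.2 CPM at 8 h, with an interaction of -1.14 ± 0.19 (SE), adjusted p = 0.0113. AHNAK (18787 bases) and HIVEP2 (10032 bases) were at -1.17 and -1.06. NDUFB11, a subunit of respiratory complex I (1388 bases), had 41.4, 48.1, 64.5 and 42.0 CPM at 12 h, against 76.1, 43.7, 67.5 and 72.1 CPM at 8 h, with an interaction of 0.86 ± 0.14 (SE), adjusted p = 0.0113. RPL7P18 (734 bases), a pseudogene whose reads may be shared with RPL7, and MIR4451 (66 bases), a microRNA gene, were at 3.89 and 3.47. Both had low levels in the 8 libraries, at 0.113 to 3.37 CPM for RPL7P18 and 0.202 to 4.70 CPM for MIR4451. In MACF1 and NDUFB11 alike, 8 h ibr stood with the 12 h dmso, ibr and Combo libraries, and 12 h pol5551 with the 8 h dmso, pol5551 and Combo libraries. Both genes were chosen by their p in this contrast, which favours such a pattern, so it adds nothing independent about the 2 libraries.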

How the data were processed

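RNA-seq of REC1 cells gave 1 library for each of 4 treatments and 3 times. The authors deposited whole-number counts for 60483 genes and a table of log2 CPM for 14767 genes. Alignment with BWA to hg38 is listed in the submitters' processing notes; the aligner's version, counting tool, annotation and strand setting were not given in the sources used here. Columns were assigned to times by their headers. Counts were tested with edgeR 4.0.16 in R 4.3.3: TMM scaling, a filter on low counts that kept 14171 genes and 99.9% of counts, and the quasi-likelihood test with treatment and time as terms over all 12 libraries (6 residual degrees of freedom; common biological coefficient of variation 0.1). Treatment is thus the block that pairs the libraries, since both libraries of a pair carry the same header treatment. P-values were adjusted by Benjamini-Hochberg over all tested genes. The repeat used the dmso and Combo libraries at all 3 times (14362 genes, 2 residual degrees of freedom). Interaction terms tested differences between pairs. The script was tested on simulated counts.

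Transcript lengths and GC content are of the longest protein-coding, or otherwise longest, transcript in GENCODE 29, and the trend was removed with splines of 5 degrees of freedom. Named genes were the 12 in each direction with the largest fold change among called genes with the same sign in all 4 pairs and a mean log2 CPM of at least 2, 5 in each direction in the dmso and Combo pairs, and the 3 with the smallest p in each direction for each interaction; list members past the threshold were named too, and others by role after their values were seen. Gene lists and comparisons were chosen with earlier results of these data known. Alternatives were DESeq2 1.42.0, limma 3.58.1 (by voom on counts, and by limma-trend on the log2 CPM that the authors deposited), other scalings and filters, and libraries left out. A chi-square comparison of counts gave at least 5.03 per degree of freedom between any 2 of the 8 libraries, so none was counted as a repeat of another.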

Additional observations from a re-analysis of the deposited data

Results flagged for a closer look

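Within a time, or among the 4 pairs, single values lay far from the other 3 in 10 of 95 groups of 4 checked. Chance gives about 1 in 20 for independent groups that were not chosen by their values. The groups checked share libraries and include genes named for their differences, so that rate cannot be set against this count. The 12 h pol5551 library was low in CSPG4P13 (3.67 CPM, others 11.1 to 12.2), ZBED6 (2.33 CPM, others 11.3 to 12.2) and UTRN (3.47 CPM, others 9.40 to 10.8), and its listed ribosomal protein genes took 5.91% of counts, against 4.31% to 4.53% in the others. The 8 h ibr library was low in RSPH1 (10.6 CPM, others 13.8 to 14.2), its listed ribosomal protein genes took 4.47% of counts, against 6.08% to 6.30% in the others, and its rho with transcript length was 0.43, against -0.42 to -0.32. FSCN1 was high in the 8 h Combo library, at 7.46 CPM, against 5.36 to 5.63 CPM. The difference between 12 h and 8 h was 1.15 for ENSG00000279207 in the dmso pair, against 0.74 to 0.75 in the others, and 1.23 for GAS6-AS1 in the Combo pair, against 0.65 to 0.72.

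The change with time differed between the ibr and pol5551 pairs and the dmso and Combo pairs in 1134 genes by an interaction term. Those named were NDUFB11 (0.86), RPL7P18 (3.89), MIR4451 (3.47), HIVEP2 (-1.06), AHNAK (-1.17) and MACF1 (-1.14), and no gene was called without the 8 h ibr or without the 12 h pol5551 library. The part of the length trend in these differences was not tested gene by gene.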

How the results depend on the processing

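Over all pairs, 1302 genes were called, against 2180 with no filter on low counts, 204 with the 8 and 12 h libraries alone, 1 in the ibr and pol5551 pairs, and 4887 without the 8 h ibr and 12 h pol5551 libraries. Without the treatment block, that is with no pairing, 20 genes were called. Leaving out 1 library or 1 treatment gave 13 to 3094. In the dmso and Combo pairs 4678 were called, 2585 with the trend removed and 1996 to 3031 with 1 library left out. With no filter, the interactions with ibrutinib and pol5551 gave 5 and 4 genes in place of 0; the contrast of single agents with dmso and Combo gave 169 in place of 1134 with the trend removed, and 0 to 0 with the 8 h ibr or 12 h pol5551 library left out. Of 576 values of the 24 named genes under these alternatives, 433 kept direction and call, 143 kept direction but lost the call and none reversed. These genes were named for being called with the same sign in all 4 pairs, so refits of the same libraries could hardly reverse them. The fit of the ibr and pol5551 pairs, and the interaction fits that left out a library, were among alternatives chosen after seeing the data. With 1 library per treatment and time, no treatment has a replicate at either time. The cause of these shifts was not tested.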

Other observations

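Genes whose symbols begin with ZNF, a group chosen after its values were seen and holding mostly zinc finger transcription factors, had 54 higher and 6 lower of 438 tested over all pairs, against 4.48% higher and 4.71% lower of all tested genes. Their median was 0.13, against 0.01 over all tested genes. With the trend removed, 29 were higher and 11 lower, at a median of 0.04, against 594 higher and 1038 lower of all 14171 tested genes at a median of -0.02.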
